A study of Homo sapiens with 4 samples.

Results

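CEBPB sites were described around 7 genes that make, break down or sense prostaglandins: PLA2G4A, PTGS1, PTGS2, PTGES, HPGD, PTGER2 and PTGER4. Members were all peak summits and all reproducible regions within 75 kb of the start site of one of these genes, with hg19 start sites given to the nearest kb. They comprised 61 of 80530 summits in replicate 1, 84 of 104307 summits in replicate 2 and 18 of 25602 reproducible regions, on chromosomes 1 to 22 and X. CEBPB binds DNA as a dimer and belongs to the C/EBP proteins, which act in inflammation and in the differentiation of many cell types. The groups were 2 CEBPB ChIP samples and 2 input samples of NCM460, a single line of human colon epithelial cells, grown in serum-supplemented medium; the labels name no treatment, and the files hold no expression markers against which to check the line. The design text presents the pair of replicates as independent. A summit was placed at a gene by distance alone, and no expression data were analysed here, so which gene a site acts on was not tested.

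Prostaglandin synthesis starts when cytosolic phospholipase A2, the product of PLA2G4A, frees arachidonic acid from membranes. The cyclooxygenases PTGS1, expressed in many tissues without stimulation, and PTGS2, induced by cytokines and growth factors, turn it into prostaglandin H2, and the inducible synthase PTGES makes prostaglandin E2 from that. HPGD inactivates prostaglandin E2, and the receptors PTGER2 and PTGER4 couple it to cyclic AMP. In colon epithelium the pathway is known for its part in repair and inflammation, and colorectal tumours often gain PTGS2 and lose HPGD. C/EBP proteins are known regulators of the PTGS2 promoter.

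A region is called reproducible where the authors' deposited table gives it a global irreproducible discovery rate (IDR, a measure of how well the ranks of replicates match) of at most 0.05. Fold is the authors' enrichment of a summit over its background, a local estimate from the input. Fragments are the extended ChIP reads stacked at the summit, recovered from fold and p, and the background is in expected fragments on the scaled pileup. Replicate 2 was 1.57 times deeper by these values. Errors are SDs over 2 replicates.

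The 7 windows together held 17.2 reproducible regions per Mb, against 8.43 per Mb over all chromosomes, a ratio of 2.04. PTGS2 had 6 regions, PTGES had 4, PLA2G4A, PTGS1, PTGER2 and PTGER4 had 2 each, and HPGD had 1. One region lay in the overlap of the PTGS2 and PLA2G4A windows and was counted for both. All 7 loci therefore held at least 1 region, beside 52.7% of 20232 genome windows of 150 kb. At least 6 regions were found in 3.07% of genome windows, at least 4 in 10.8% and at least 2 in 32.3%. The genome windows include stretches without genes, and windows around other start sites were not analysed here. The density is thus a description and was not tested.

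**Figure D1:**
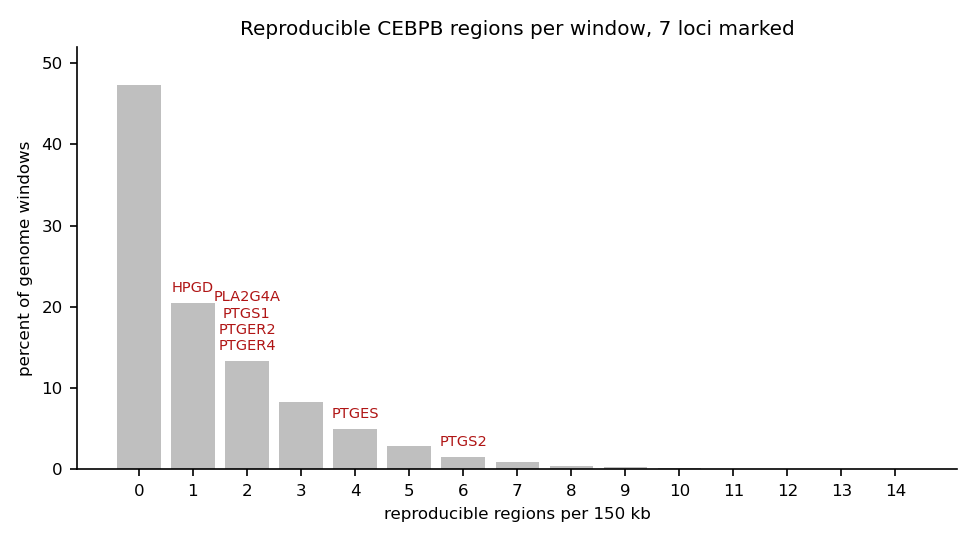
Percent of 20232 genome windows of 150 kb (vertical axis) by the number of reproducible CEBPB regions they hold (horizontal axis), with the 7 gene windows named above the bar of their own count. PTGS2 stands at 6 regions, PTGES at 4 and HPGD at 1, and 47.3% of genome windows hold none.

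The members were ordinary in strength by fold. Their median mean fold was 15.1, against 15.8 over all reproducible regions, and 7 of 18 lay above that median. By fragments they stood higher: the medians were 83 and 95 in replicates 1 and 2, against 58 and 76 over all reproducible regions, and 13 of 18 lay above the median. Input background was also higher in the windows, as taken over all their summits and not over the 18 regions alone. The median background at window summits was 3.31 (replicate 1) and 3.66 (replicate 2), against 2.14 and 2.2 at all summits. Its part in the difference between the rankings was not tested.

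The maps of summits by distance show where these sites fell. By the start sites as given, only PTGS2 and PTGER4 had a reproducible region whose nearest edge lay within 1 kb. These edges lay 0.11 and 0.59 kb away, and the starts may be off by 0.5 kb. RefSeq lists a second promoter entry for PTGS1 and a second for HPGD. The PTGS1 entries are at chr9:122370283-122370582 and, downstream of it, chr9:122375052-122375351 (GRCh38.p14). The second lies on the side of the reproducible region 5.9 kb downstream of the start as given. Distances from those further starts were not measured, so a PTGS1 region within 1 kb of its second start is not excluded. At PTGS1 the nearest edge was 3.81 kb away, at PLA2G4A 5.59 kb, at PTGES 9.71 kb, at PTGER2 14.2 kb and at HPGD 70.7 kb. The median distance from the middle of a genome window to the nearest region was 67.0 kb. Those windows include stretches without genes, and distances from the start sites of other genes were not measured.

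**Figure D2:**
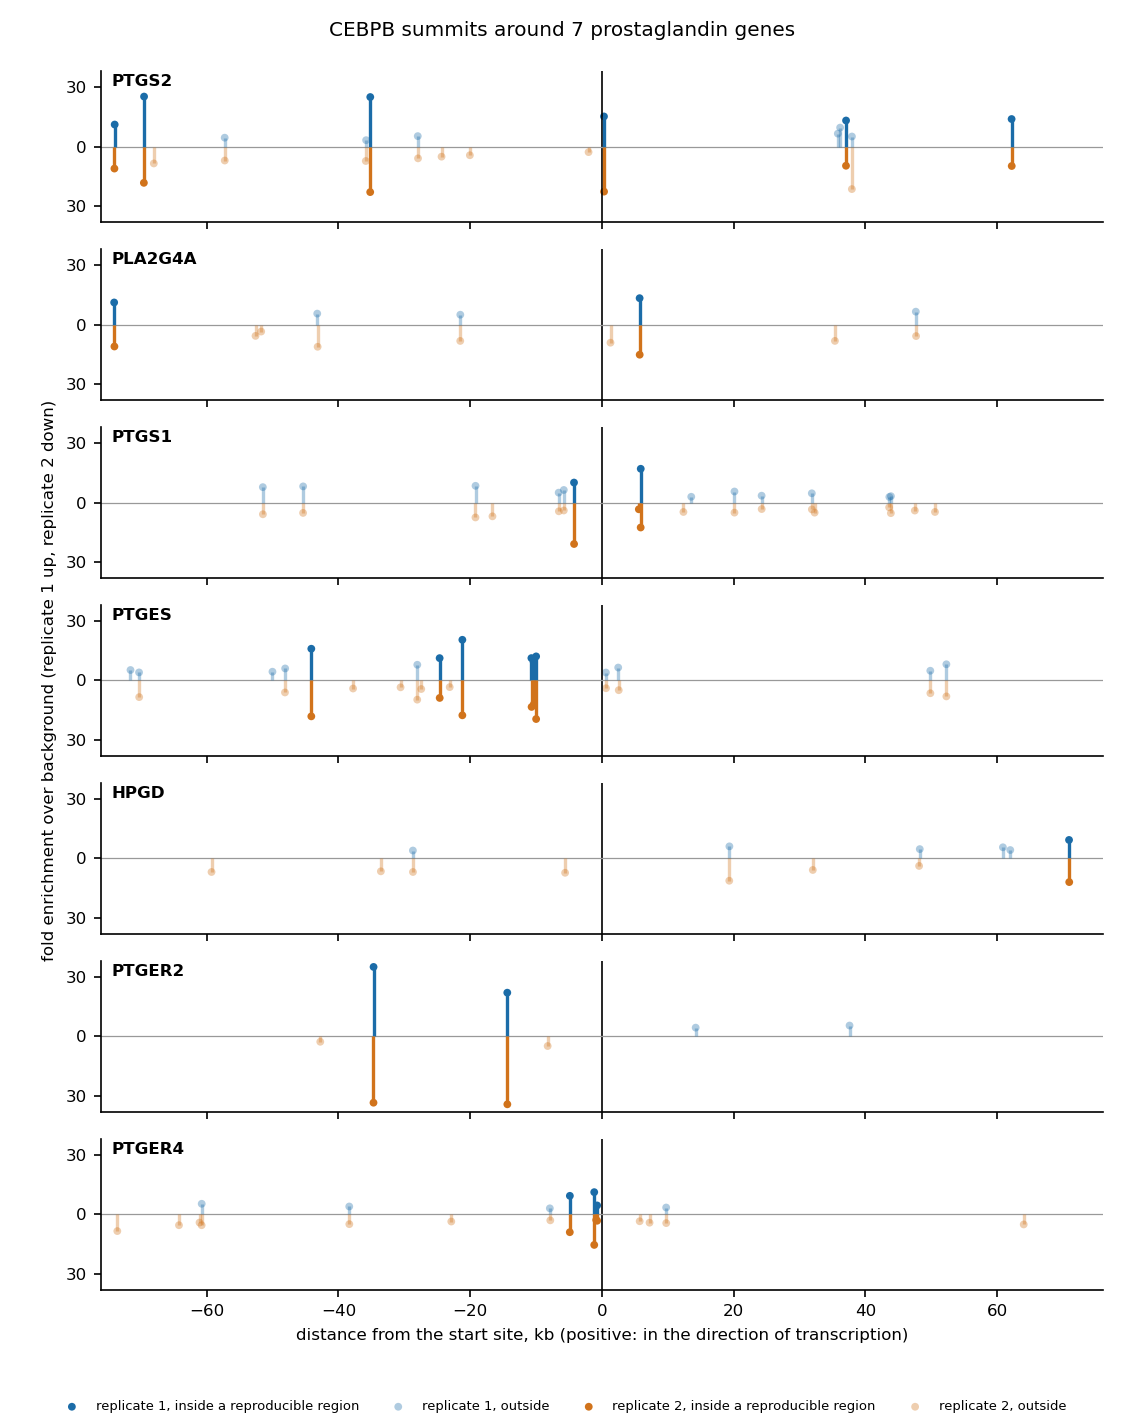
CEBPB summits within 75 kb of 7 start sites: the horizontal axis is the distance in kb, positive in the direction of transcription, and stems give the fold over background, upward for replicate 1 and downward for replicate 2. Dark stems lie inside reproducible regions; PTGS2 has one at its start, whereas the single dark pair at HPGD lies 70.9 kb downstream.

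PLA2G4A, whose product releases arachidonic acid, had 1 reproducible site close downstream of its start and none at the start itself. The window on band 1q31.1 held 5 summits in replicate 1 and 9 in replicate 2. The site at chr1:186803591-186803897, 5.74 kb downstream of the start at 186.798 Mb, had a fold of 13.3 in replicate 1 and 15.2 in replicate 2, a mean of 14.2 ± 1.33 (SD, n = 2). It rested on 42 and 45 fragments over backgrounds of 2.0 and 1.44, and stood at the 41st percentile of all reproducible regions by mean fold and at the 22.9th by fragments. The folds of the replicates were thus close at this site. The fragment ratio of replicate 2 to replicate 1 was 1.07, beside 1.43 for regions of like height (two-sided exact binomial test, adjusted p = 0.572). Nearer to the start, at 1.31 kb, replicate 2 alone had a summit, with a fold of 9.13 and 33 fragments. The pair at 43.2 kb upstream had folds of 5.52 in replicate 1 and 11.2 in replicate 2, with 14 and 35 fragments, and was not among the reproducible regions.

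PTGS2 and PLA2G4A are neighbours in the RefSeq gene order, apart from the non-coding gene PACERR, and are transcribed away from each other, with start sites 148 kb apart. The stretch between the starts held 3 reproducible regions, with 8 summits in replicate 1 and 14 in replicate 2. Of these, 2 lay nearer to PTGS2 and the other lay midway. The midway region, at chr1:186723805-186724187, lay just inside both windows, 74.0 kb upstream of each start, with folds of 11.1 and 11.0 (mean 11.1 ± 0.07, SD, n = 2) and 35 and 54 fragments. The next region beyond the PLA2G4A window, 78.5 kb upstream, is the PTGS2 site described below at 69.5 kb. Which of the genes these sites act on was not tested.

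PTGS2, the inducible cyclooxygenase, held more reproducible regions within 75 kb than any of the other 6 genes, and one of them lay at its start. That order depended on the limits: with 50 kb on each side PTGS2 had 3 regions and PTGES had 4, and at an IDR of at most 0.01 each had 3. The window held 12 summits in replicate 1 and 14 in replicate 2, of which 10 in each list had a partner within 100 bp. The site at the start, chr1:186649483-186649891, had a fold of 15.2 in replicate 1 and 22.7 in replicate 2, a mean of 18.9 ± 5.27 (SD, n = 2). Fragments were 48 and 89 over backgrounds of 1.99 and 2.18. The summits of the replicates lay 5 bp apart, 0.32 kb from the start at 186.650 Mb. That distance is less than the rounding of the start, so the side on which the summits lie is not resolved. The site stood at the 64th percentile of all reproducible regions by mean fold, with an IDR of 0.00172.

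The PTGS2 promoter is shown because it was the only member promoter with a match to TTNCGNAA, a palindromic C/EBP core of which N is any base, and because a reproducible CEBPB region lies at that start. The PTGER4 promoter is shown beside it, as the other gene with a region within 1 kb of its start as given. Both run from 250 bases before to 50 after the start, 5′ to 3′ on the gene's strand, from RefSeq on GRCh38.p14, at chr1:186680374-186680673 (minus strand) and chr5:40679665-40679964 (plus strand). Capitals mark the match. These coordinates are of another build than the peaks and were not converted.
PTGS2: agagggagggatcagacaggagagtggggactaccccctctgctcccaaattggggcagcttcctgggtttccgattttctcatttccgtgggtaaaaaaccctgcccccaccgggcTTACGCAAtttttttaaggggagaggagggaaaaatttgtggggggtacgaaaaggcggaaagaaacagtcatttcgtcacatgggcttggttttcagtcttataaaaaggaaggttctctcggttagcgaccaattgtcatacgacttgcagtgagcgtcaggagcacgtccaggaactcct
PTGER4: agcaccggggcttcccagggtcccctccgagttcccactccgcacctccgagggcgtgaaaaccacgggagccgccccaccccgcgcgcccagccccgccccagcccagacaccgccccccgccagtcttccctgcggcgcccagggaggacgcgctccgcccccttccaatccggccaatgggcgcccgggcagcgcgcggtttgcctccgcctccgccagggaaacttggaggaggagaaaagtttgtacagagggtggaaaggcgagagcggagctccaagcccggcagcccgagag

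In the PTGS2 promoter the match TTACGCAA spans positions -133 to -126 before the start. TTNCGNAA occurred in 2.57% of the 35116 RefSeq promoters. The looser TTNCNNAA, searched on both strands as TTNCNNAA and TTNNGNAA and holding every TTNCGNAA, occurred in 36.8% of them. Of 9 promoter entries for the 7 genes, the looser form added only 1 of the 2 entries for PTGS1, at positions -115 to -108 (agtggtgtTTATGGAAagaacgtg, chr9:122375052-122375351, plus strand, capitals marking the match). The PTGER4 promoter held neither form in this window. Base composition also set these promoters apart: GC was 50.7% in PTGS2 with 12 CpG pairs and 72.0% in PTGER4 with 30, against a median of 58.7% over all promoters (quartiles 47.0 and 68.0%). The PLA2G4A promoter had 39.7% and the PTGER2 promoter 74.7%. A match is a description of letters; whether CEBPB touches these bases cannot be read from peaks of the widths given here.

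By mean fold, the strongest PTGS2 sites lay upstream of the start. At 35.2 kb upstream (chr1:186684954-186685465) the fold was 25.0 in replicate 1 and 22.9 in replicate 2, a mean of 24.0 ± 1.48 (SD, n = 2), with 125 and 142 fragments over backgrounds of 3.67 and 4.0. At 69.5 kb upstream (chr1:186719145-186719845) it was 25.2 and 18.2, a mean of 21.7 ± 4.95 (SD, n = 2), with 57 and 90 fragments. By mean fold these stood at the 79th and 73rd percentiles of all reproducible regions. By fragments they stood at the 86th and 56th, and the site at the start at the 51st. Well downstream of the start the folds were lower, although the nearer site there stood at the 53rd percentile by fragments. The site 37.1 kb downstream (chr1:186612765-186613095) had folds of 13.2 and 9.63 with 70 and 71 fragments, and the site 62.2 kb downstream (chr1:186587605-186587950) had 13.9 and 9.76 with 29 and 72 fragments. The last of these rested on a background of 1.00 in replicate 1 and 5.0 in replicate 2, so that its higher fold in replicate 1 came with fewer fragments.

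A second summit pair near 37 kb downstream of PTGS2 did not enter the IDR regions although it was tall in replicate 2. At 37.95 kb replicate 1 had a fold of 5.11 and replicate 2 one of 21.4, on 32 and 79 fragments over backgrounds of 5.0 and 2.0. Its fragment ratio of replicate 2 to replicate 1 was 2.47, beside 1.36 for pairs of like height. That difference did not pass the threshold over all pairs (two-sided exact binomial test, p = 0.00384, adjusted p = 0.0821 by Benjamini-Hochberg). Replicate 1 also had a summit without a partner 36.2 kb downstream, with a fold of 9.59 and 21 fragments, the highest fold of the 9 window summits without a partner in replicate 1.

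Of the 52 summit pairs in the 7 windows, 1 differed between the replicates, again at PTGS2. At 27.9 kb upstream, 39 fragments in replicate 1 and 19 in replicate 2 gave a ratio of 0.487, beside 1.48 for pairs of like height (two-sided exact binomial test, adjusted p = 0.00576 over 63590 pairs). Over all pairs 3.15% were called, so 1 call in 52 is near the background; this pair was named after its value was seen. The folds at this pair, 5.31 in replicate 1 and 5.89 in replicate 2, hardly differed, with backgrounds of 6.0 and 1.75. The p-values cover counting error between these libraries and not the spread between further replicates.

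PTGS1, the constitutive cyclooxygenase, was flanked by a reproducible region on each side of its start as given. The window on band 9q33.2 held 13 summits in replicate 1 and 18 in replicate 2, of which 12 in each list had a partner. The region 4.23 kb upstream of the start at 125.133 Mb (chr9:125128556-125129194) had a fold of 10.1 in replicate 1 and 20.9 in replicate 2, a mean of 15.5 ± 7.68 (SD, n = 2). Its fragments were 140 and 184, a ratio of 1.31 beside 1.16 for regions of like height (two-sided exact binomial test, adjusted p = 0.677). Its background was 12.0 in replicate 1 and 6.08 in replicate 2, so fold separated the replicates more than fragments did. The region 5.90 kb downstream (chr9:125138531-125139083) had folds of 17 and 12.6, a mean of 14.8 ± 3.11 (SD, n = 2), with 109 fragments in each replicate.

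The other PTGS1 summits were weak in both lists. Outside the reproducible regions the fold reached 8.41 in replicate 1 and 7.53 in replicate 2, at the same pair 19.2 kb upstream, with 33 and 39 fragments. The pair 5.79 kb upstream, closest to the start among them, had folds of 6.32 and 4.02 with summits at the same base. Just outside the window, 82.6 kb downstream, a reproducible region had a mean fold of 13.8 with 141 and 195 fragments. Backgrounds in this window were high, with medians of 4.0 and 4.45.

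PTGES, the inducible prostaglandin E synthase, carried a row of 4 reproducible regions upstream of its start and none downstream. The window held 15 summits in replicate 1 and 17 in replicate 2, and 13 in each list had a partner. The region nearest to the start at 132.515 Mb, 9.98 kb upstream (chr9:132524715-132525871), was 1157 bp wide, at the 98.7th percentile by width, and held 3 summits in each replicate. Only 1.02% of all reproducible regions had at least 3 in both. Its tallest summit had 169 fragments in each replicate, with folds of 12.1 in replicate 1 and 19.5 in replicate 2 (mean 15.8 ± 5.18, SD, n = 2) over backgrounds of 12.0 and 6.0. The other 2 summits followed at 10.3 and 10.7 kb, with 76 and 84 fragments in replicate 1 and 121 and 149 in replicate 2.

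Farther upstream of PTGES the region at 21.2 kb (chr9:132535921-132536392) had the highest fold of the locus, 20.5 in replicate 1 and 17.6 in replicate 2, a mean of 19.0 ± 2.05 (SD, n = 2). It rested on 136 and 127 fragments. The region at 44.1 kb (chr9:132558928-132559370) had folds of 16.0 and 18.1 with 61 and 92 fragments. The region at 24.6 kb (chr9:132539394-132539888) had folds of 11.2 and 8.82 with 96 and 98 fragments, and its IDR of 0.0377 was close to the limit of 0.05. At the start itself the signal was weak but present in both lists: a pair 0.62 kb downstream had folds of 3.98 and 3.92 with 29 and 38 fragments over backgrounds of 6.0 and 7.0. PTGES lies in band 9q34.11, which held 80 reproducible regions with a median mean fold of 15.9.

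HPGD, the enzyme that inactivates prostaglandin E2, had the fewest reproducible regions of the 7 genes. At an IDR of at most 0.01, HPGD and PTGER4 each had 0. The HPGD region had an IDR of 0.026, whereas the PTGER4 region nearest to its start missed that limit narrowly, at 0.0104. The window on band 4q34.1 held 6 summits in replicate 1 and 8 in replicate 2, of which 4 in each list had a partner. Its only reproducible region lay 70.9 kb downstream of the start at 175.444 Mb (chr4:175372926-175373312), with folds of 9.28 and 12.0, a mean of 10.6 ± 1.89 (SD, n = 2), and 39 and 34 fragments. That places it at the 14th percentile by mean fold and close to the edge of the window. On the upstream side the next reproducible region was 605 kb away. The start therefore lay in a gap of 675 kb between reproducible regions. By number, 2.55% of all 25579 gaps were as long, and the median gap was 43.4 kb. Long gaps cover more of the genome, so this is not the share of positions that lie in such gaps. By distance the start was ordinary beside the middles of genome windows, of which 51.3% lay as near to a reproducible region. This gap was singled out after its value was seen.

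Weaker summits did occur inside that gap. Within 75 kb of the HPGD start, the strongest of them by fold was a pair 19.4 kb downstream, with a fold of 6.05 and 12 fragments in replicate 1 and 11.3 and 32 fragments in replicate 2. The nearest to the start, 5.58 kb upstream, was seen in replicate 2 only, with a fold of 7.26 and 26 fragments. The input background was low here, with medians of 1.11 in replicate 1 and 1.36 in replicate 2, where the lowest values the peak caller assigns are 1.00 and 1.36. Folds over all HPGD summits ran from 3.96 to 9.28 in replicate 1, on 9 to 39 fragments, and from 3.82 to 12.0 in replicate 2, on 10 to 34 fragments.

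PTGER2, a receptor for prostaglandin E2, had the strongest sites of all members, both upstream of the gene. At 34.7 kb upstream of the start at 52.781 Mb (chr14:52745996-52746530) the fold was 35.0 in replicate 1 and 33.5 in replicate 2, a mean of 34.2 ± 1.06 (SD, n = 2). It rested on 181 and 208 fragments over backgrounds of 3.83 and 4.0, at the 94th percentile of all reproducible regions, and was the only member in the strongest decile by mean fold. A site this strong or stronger occurred in 7.02% of genome windows. At 14.4 kb upstream (chr14:52766458-52766815) the fold was 22 in replicate 1 and 34.3 in replicate 2, a mean of 28.1 ± 8.69 (SD, n = 2), with 165 and 182 fragments. Backgrounds of 6.0 and 3.28 stood beside this spread, and the fragments differed no more than at like heights (ratio 1.10 beside 1.17, exact binomial test, adjusted p = 0.90).

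Around these sites PTGER2 had little other signal. Each replicate had 4 summits in the window on band 14q22.1, and the 2 outside the reproducible regions had no partner in either list. Their folds ran from 2.76 to 5.42. In the RefSeq gene order the nearest protein-coding gene on the upstream side is PTGDR, a receptor for prostaglandin D2, and on the downstream side TXNDC16. The upstream protein-coding neighbours of PTGS1, PTGES, HPGD and PTGER4 are MRRF, TOR1B, GLRA3 and DAB2. No site was assigned to any of these genes.

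PTGER4, the second receptor for prostaglandin E2 among the members, had a tall but modestly enriched region next to its start. The region at chr5:40678632-40679408, with its main summit 1.16 kb upstream of the start at 40.680 Mb, had 131 fragments in replicate 1 and 181 in replicate 2. Its fold was 11.1 and 15.5, a mean of 13.3 ± 3.07 (SD, n = 2), over backgrounds of 10.0 and 8.42. By fragments it stood at the 90.9th percentile of all reproducible regions, and by mean fold at the 35.2nd, with an IDR of 0.0104. A secondary summit pair in it, 0.72 kb upstream, had folds of 4.44 and 3.29 with 42 and 44 fragments. The region 4.87 kb upstream (chr5:40674816-40675298) had folds of 9.28 and 9.05 with 46 and 78 fragments, at the 1.89th percentile by mean fold and the 44.9th by fragments, with an IDR of 0.043.

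The input background of the PTGER4 window was the highest of the 7. Its summits had a median background of 8.0 in each replicate, against medians of 1.11 to 4.28 in replicate 1 and 1.36 to 4.45 in replicate 2 at the other 6 genes. PTGER4 lies on the short arm of chromosome 5, where all summits had medians of 4.0 and 4.17. The window held 7 summits in replicate 1, all with a partner, and 15 in replicate 2. Outside its regions the fold reached only 5.26 in replicate 1, 60.8 kb upstream, and 8.49 in replicate 2, 73.6 kb upstream. The part of the background in these low folds was not tested.

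**Figure D3:**
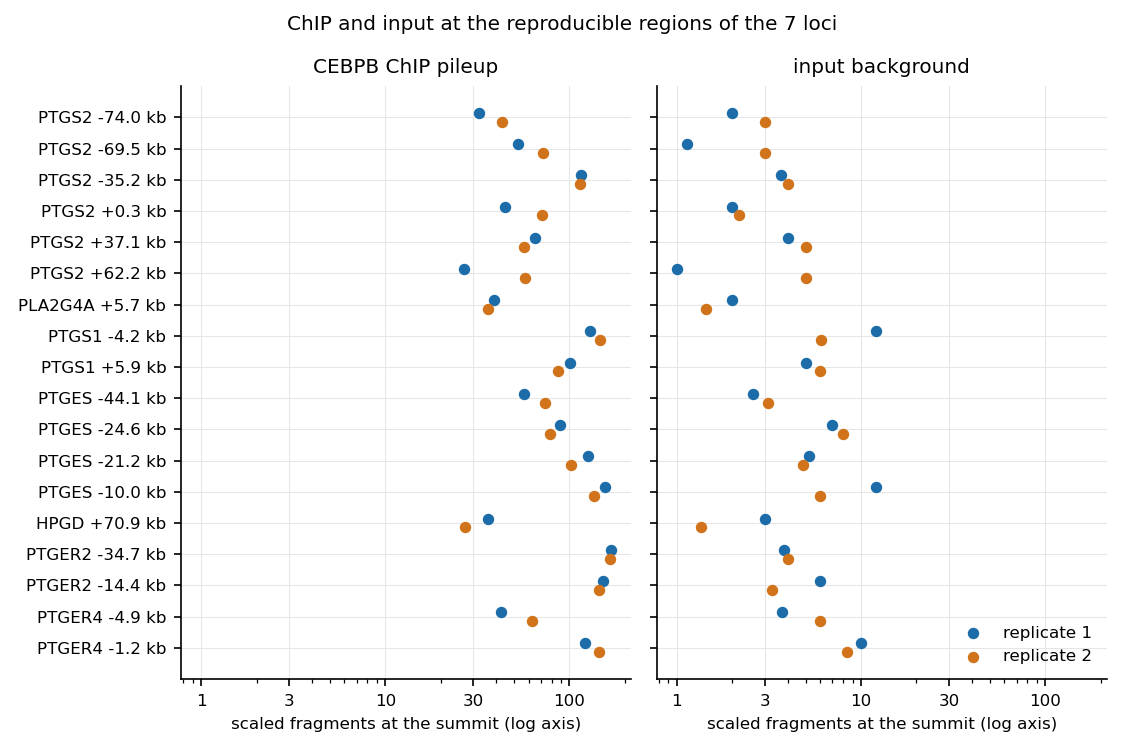
Scaled ChIP pileup (left) and input background (right) at the main summit of the 18 reproducible regions, on the same log axis of scaled fragments, with replicate 1 in blue and replicate 2 in orange. Backgrounds run from 1.00 to 12.0 and in replicate 1 are highest at PTGS1 -4.2 kb, PTGES -10.0 kb and PTGER4 -1.2 kb, whereas in replicate 2 they are highest at PTGER4 -1.2 kb and PTGES -24.6 kb.

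Across the 18 regions the replicates located the same sites closely. Their summits lay a median of 8 bp apart and at most 37 bp, beside a median of 8 bp over all reproducible regions. None of the 18 differed in fragments at an adjusted p of at most 0.05 (two-sided exact binomial tests adjusted over 25602 regions), beside 2.92% of all regions. The smallest adjusted p was 0.144, at the PTGS2 site 62.2 kb downstream, and 4 of the 18 (22.2%) had an unadjusted p of at most 0.05, beside 16.5% of all regions. By IDR, 10 of the 18 (55.6%) were at or below 0.01, beside 60.6% of all reproducible regions. The share of window summits that lay inside a reproducible region was 34.4% in replicate 1 (21 of 61, 95% exact binomial interval 22.7 to 47.7%) and 27.4% in replicate 2 (23 of 84, 18.2 to 38.2%). Over all summits these shares were 36.5% in replicate 1 and 28.6% in replicate 2, so the windows were near the background.

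**Figure D4:**
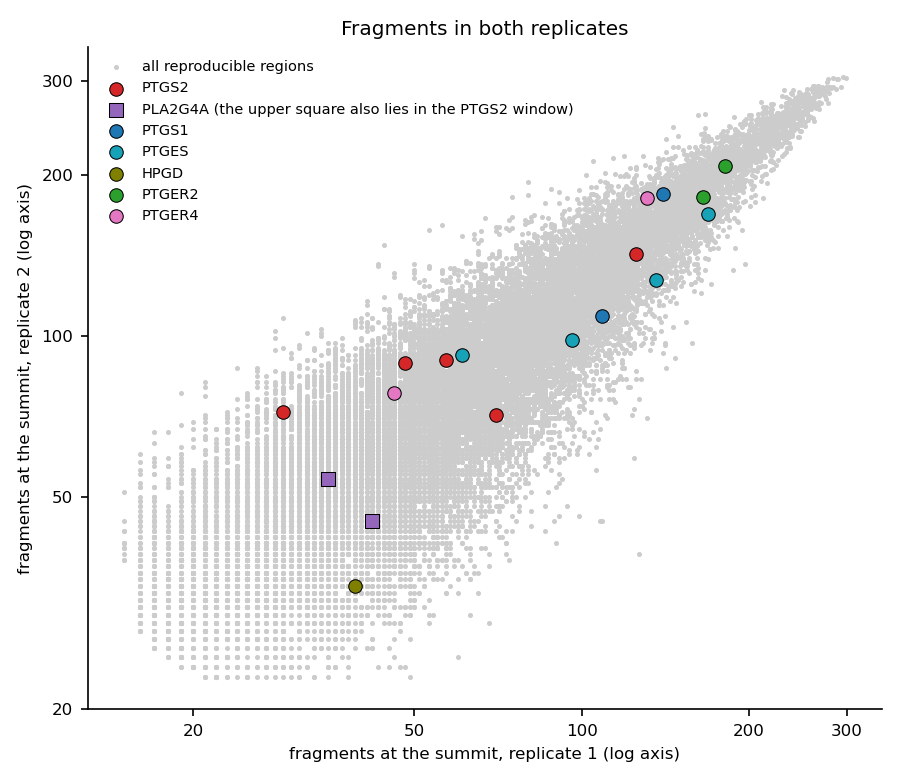
Fragments at the summit in replicate 1 (horizontal) and replicate 2 (vertical), both on log axes, for all 25602 reproducible regions in grey and for the members in colour by gene. The PTGER2 sites lie toward the tall end, at 165 and 182 and at 181 and 208 fragments, and the HPGD site near the low end at 39 and 34.

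Most window summits of replicate 1 were found in both lists. In replicate 1, 52 of 61 window summits (85.2%) had a partner within 100 bp, beside 79.0% of all summits. In replicate 2, 52 of 84 (61.9%) had one, beside 61.0%. Of the 52 pairs, 31 lay outside the reproducible regions. Summits without a partner numbered 9 in replicate 1 and 32 in replicate 2, with folds of at most 9.59 and 9.13. The largest groups of them in replicate 2 were at PTGER4 and PTGS1.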

How the data were processed

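CEBPB ChIP and input DNA of NCM460 cells were sequenced on an MGIseq2000 in pairs of reads. Peak coordinates are on hg19, and the tools were MACS2 2.1.2, Bowtie2 2.3.4, bedtools 2.25.0, SAMtools 1.9 and FastQC 0.11.7, per the submitters' processing notes. The authors deposited peaks per replicate with fold enrichment over the input background and with −log10 p and q values, and a table of regions found in both replicates with a −log10 global IDR; 2 columns of per-sample values in it were not used. Input enters only through the peak caller's background. Fragments and background per summit were solved from fold and p, and came out whole for 100% of summits within 0.005 on −log10 p; on simulated summits 100% were recovered. Entries of the IDR table that share an interval counted as 1 region, represented by the entry with the highest mean fold. Differences between replicates were tested by a two-sided exact binomial test per region, taking as its null share the median over the 1001 regions closest in height, with Benjamini-Hochberg adjustment over all regions, and likewise over all pairs; they compare libraries and cover counting error only, as do the intervals. Genome windows were non-overlapping, 150 kb wide. Promoters, gene order and strands came from RefSeq (GRCh38.p14), by symbol, and all 7 genes matched; hg19 sequence was not used here. Cytogenetic bands came from circlize 0.4.16. Python 3.11.15, SciPy 1.17.1, pandas 2.3.3 and R 4.3.3 were used. Named items were each region (PTGS2: the 5 with the highest mean fold and the nearest), and per gene and list the nearest and the highest-fold summit outside regions. Members and lists were chosen with earlier results of these data known. Alternatives covered window, IDR limit, region definition, q limit, motif, promoter length, genome extent and each replicate left out.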

Additional observations from a re-analysis of the deposited data

How the results depend on the processing

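The count of 18 regions fell to 10 at an IDR of at most 0.01, was 50 with summit pairs at q of at most 0.01, and ranged from 58 to 77 with either replicate's own peaks alone. The density ratio of 2.04 was 2.37 with 50 kb and 1.67 with 100 kb on each side, 1.87 at the stricter IDR, 2.31 with summit pairs, 1.89 without centromeric, variable and stalk bands, and 2.24 to 2.28 with a replicate left out; it stayed above 1 in each of these. The share of summits inside regions, 30.3% over both lists, was 17.2% at the stricter IDR. The count of differing regions, 0, was 1 over all summit pairs within 100 bp, an alternative chosen after seeing the data. Genes with a motif match numbered 2 instead of 1 with the looser motif. The cause of these shifts was not tested, apart from the fewer or more regions that each limit admits by construction. At the stricter IDR, PTGS2 and PTGES had 3 regions each, PLA2G4A and PTGS1 had 1 each, and HPGD and PTGER4 had 0. With 50 kb on each side PTGES had 4, PTGS2 3, PLA2G4A 1 and HPGD 0. Ranking by fragments instead of fold moved 14 of 19 percentiles by more than their spread. Here the region shared by PTGS2 and PLA2G4A was counted for both genes and moved in both. With 2 replicates, an SD is itself imprecise, and sites below the depth of these libraries would not be seen. No paired analysis was possible because both inputs enter through the background of the peak lists, so that ChIP and input were not compared by a test.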
